A study of Ovis aries with 6 samples.

Results

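A set of 10 antioxidant genes was followed through the cell types of the sheep ovary: the alpha-class glutathione S-transferases GSTA1 and GSTA1-1, the glutathione peroxidases GPX1, GPX2, GPX3 and GPX4, the superoxide dismutases SOD1 and SOD2, catalase (CAT) and thioredoxin (TXN). The members were chosen by name, and all 10 were found among the 30574 genes of the count tables. GSTA1 and GSTA1-1 are listed there as separate genes. A further list of 74 genes of glutathione, peroxide and thioredoxin metabolism, of which 62 were found, is described after the members.

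The samples were whole ovaries of 6 Hu ewes in estrus, Hu being a prolific Chinese breed, and the study asked how somatic cells of the ovary differ with litter size. The HLS group (3 ewes) had litters of at least 3 lambs and the LLS group (3 ewes) had litters below 2. One ovary of each ewe was digested with enzymes and sequenced as 1 droplet-based single-cell library, so the ewe was the replicate, and no other treatment or genotype is given for either group. RNA of 1 droplet shares a cell barcode, and each molecule has a unique molecular identifier (UMI) that is counted once.

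Cells of the ovary make superoxide and hydrogen peroxide during respiration and during steroid synthesis. Superoxide dismutases turn superoxide into hydrogen peroxide, and catalase, glutathione peroxidases and the peroxiredoxins that thioredoxin keeps reduced remove the peroxide. Glutathione S-transferases couple glutathione to reactive lipophilic compounds, and some of the alpha class also isomerise steroid intermediates, for which steroid-making cells are known to contain them.

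The 6 libraries held 43329214 to 75549906 UMI each. Of 52290 barcodes, 36457 were kept as single cells, 5189 to 7096 per ewe, with a median of 5233 to 9775.5 UMI per kept cell. Any 2 libraries shared 13 to 28 barcodes, of which 5 to 18 were kept in both. Cells were grouped by clustering and given names in -like after their marker genes; the 10 members and the further list were kept out of the genes that formed the clusters and out of the markers, so that their levels were not used to define a type. Levels are given as UMI per 10000 UMI of all cells of a type summed within a ewe, as mean ± SD over ewes, and a type entered with the ewes in which it had at least 10 cells. Differences between types are log2 fold changes ± SE. Each SE was derived from the log2 fold change and the F statistic of its test. Adjusted p values are those of edgeR (quasi-likelihood, Benjamini-Hochberg over all genes tested), with the ewe as a block where types are compared. Intervals of shares of cells are exact binomial intervals and cover counting error only.

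Among the types compared were theca-like cells (1483 cells, with LHCGR, CYP17A1 and INSL3 among their leading genes), granulosa-like cells (2830), macrophage-like cells (983), T or NK-like cells (1685), endothelial-like cells (12768) and 3 stromal-like clusters. The stromal-like clusters were led by PTCH1 and COL11A1 (2539 cells, called PTCH1 stroma here), by CDR1 and PCDH7 (4318 cells, CDR1 stroma) and by SERPINF1 and DPT (1483 cells, DPT stroma). Each was named from its own leading genes, and they were compared separately. The CDR1 stroma had more smooth muscle than stromal markers among its 10 leading genes. Of the endothelial-like clusters, several came mostly from 1 or 2 ewes. Theca-like cells made up 3.30%, 4.96% and 6.80% of kept cells in HLS1, HLS2 and HLS3 and 0.974%, 1.81% and 6.02% in LLS1, LLS2 and LLS3. Luteal-like cells (110) came from LLS3 except for 1 cell, so their values have no replicate, and neutrophil-like cells (99) were shallow, with a median of 1225 UMI.

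GSTA1 was highest in theca-like cells, the androgen-making cells of the follicle wall. Its level there was 163, 165 and 129 UMI per 10000 in HLS animals and 124, 91.7 and 149 in LLS animals, a mean of 137 ± 27.9 (SD, n = 6). PTCH1 stroma (25.9 ± 6.11, n = 6) and granulosa-like cells (24.7 ± 10.3, n = 6) followed. In each of the 6 ewes the theca-like level was above that of every other type compared. Against the mean of the other types GSTA1 was higher by 6.95 ± 0.15 on the log2 scale in theca-like cells (adjusted p = 3.92e-55), by 4.26 ± 0.16 in PTCH1 stroma (adjusted p = 1.94e-37) and by 4.18 ± 0.17 in granulosa-like cells (adjusted p = 1.58e-36).

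In the order of GSTA1 levels, theca-like cells stood 2.52 ± 0.31 above PTCH1 stroma on the log2 scale (adjusted p = 5.19e-10). PTCH1 stroma and granulosa-like cells could not be ordered, with a difference of 0.07 ± 0.30 (adjusted p = 0.891). Neutrophil-like cells held 7.05 (83 UMI, n = 3) and were not tested. The next type tested, smooth muscle-like cells (1.48 ± 0.841, n = 6), stood 4.29 ± 0.36 below granulosa-like cells (adjusted p = 8.52e-18). Below it no pair of neighbours differed at an adjusted p of 0.05, down to endothelial-like cells led by APLN and ADAMTS5 (0.474 ± 0.269, n = 6). The stromal-like clusters did not share the gene: PTCH1 stroma was 4.82 ± 0.35 above CDR1 stroma (1.04 ± 0.44, n = 6; adjusted p = 3.11e-19), and DPT stroma held 0.884 ± 0.531 (n = 6).

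**Figure D1:**
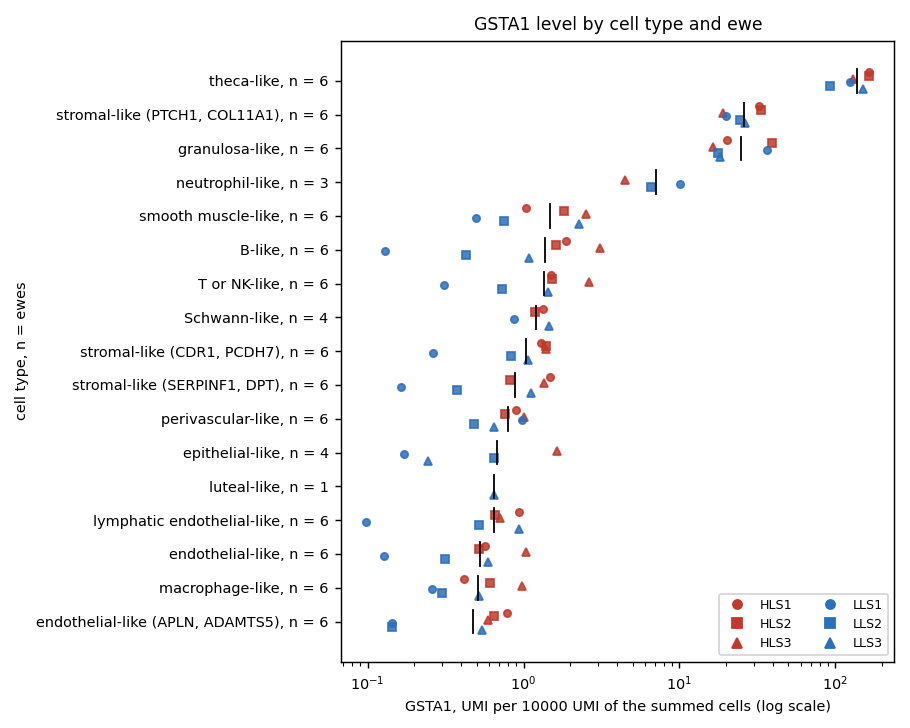
GSTA1 level by cell type. The horizontal axis gives UMI per 10000 UMI on a log scale, each point is 1 ewe, black bars are means over ewes, and n is the number of ewes; theca-like cells lie between 91.7 and 165, PTCH1 stroma and granulosa-like cells between 16.5 and 39.1, and nearly all other points lie far lower.

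The level of GSTA1 in granulosa-like cells and in PTCH1 stroma was set beside that of the 6 marker genes used to name theca cells, since RNA from broken cells can enter any droplet. In granulosa-like cells GSTA1 stood at 18.3% of the theca-like level of the same ewe (lowest 12.2%, highest 29.5%). CYP17A1, the androgen-making lyase, stood there at 0.392%, INSL3, a theca hormone, at 0.406%, and LHCGR, the luteinizing hormone receptor, at 1.85%. ALDH1A1, a retinal dehydrogenase, stood at 1.86%, but CYP11A1, which starts steroid synthesis and is known in granulosa cells too, stood at 25.5%, above GSTA1. In PTCH1 stroma GSTA1 stood at 19.2% (14.7% to 26.8%), CYP17A1 at 1.94%, INSL3 at 1.81%, LHCGR at 12.4%, ALDH1A1 at 15.2% and CYP11A1 at 19.7%. T or NK-like cells held GSTA1 at 0.978%, CYP17A1 at 1.12% and CYP11A1 at 2.55% of the theca-like level. Endothelial-like cells held them at 0.384%, 0.603% and 12.8%. In endothelial-like cells led by APLN and ADAMTS5, GSTA1 stood at 0.327%, CYP17A1 at 3.52% and CYP11A1 at 51.0%. STAR, the sixth marker, gave 18 UMI in granulosa-like cells (3.40%) and 11 in PTCH1 stroma (3.90%), and stood at 446% (lowest ewe 27.8%) in macrophage-like cells. GSTA1 thus stood above CYP17A1, INSL3, LHCGR, ALDH1A1 and STAR in granulosa-like cells but below CYP11A1, and in PTCH1 stroma it lay near CYP11A1 and ALDH1A1. These percentages were not tested against each other.

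**Figure D2:**
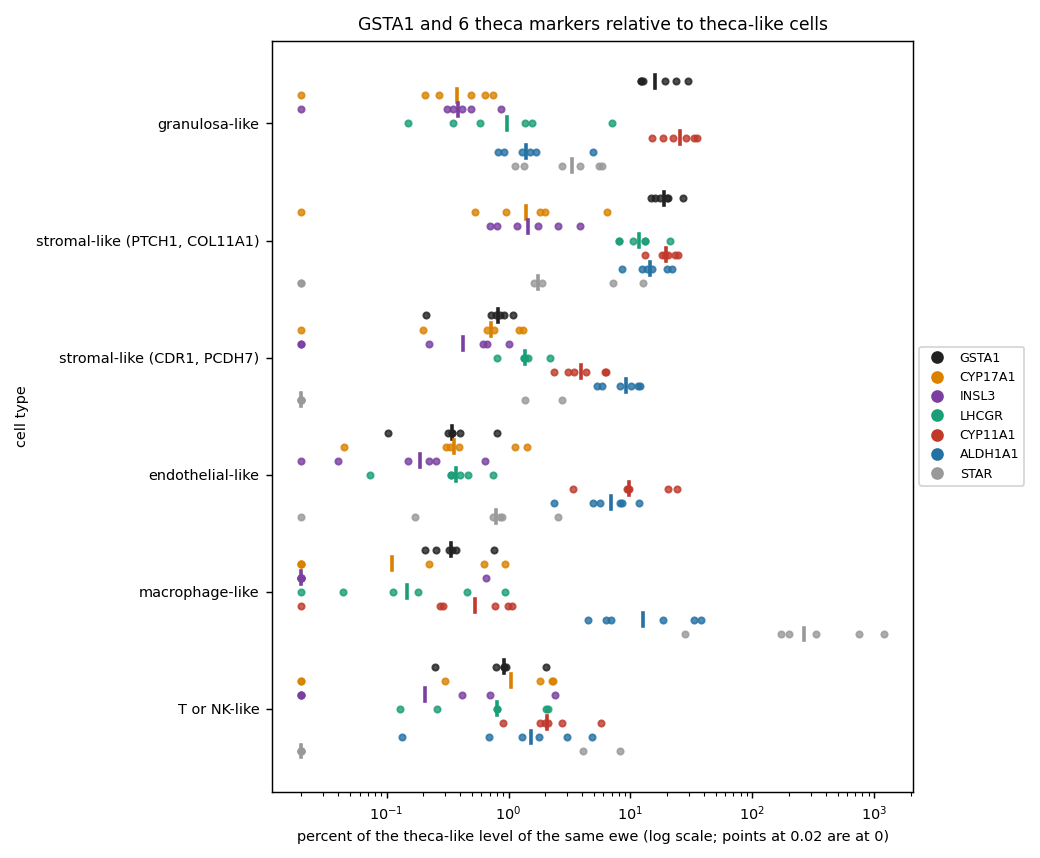
GSTA1 and 6 theca markers relative to theca-like cells. The horizontal axis gives each gene's level as a percent of its level in theca-like cells of the same ewe on a log scale, points are ewes and bars are medians; GSTA1 lies at 12.2% to 29.5% in granulosa-like cells, where CYP17A1 and INSL3 lie under 1% and CYP11A1 at 14.9% to 35.2%, while CYP11A1 in endothelial-like cells and ALDH1A1 and STAR in macrophage-like cells lie far above GSTA1.

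Counted per cell, with every cell thinned to 1000 UMI, 98.2% of theca-like cells had at least 1 UMI of GSTA1 (97.4% to 98.8%), against 66.2% of granulosa-like cells (64.4% to 68.0%), 52.7% of PTCH1 stroma (50.7% to 54.7%), 14.6% of T or NK-like cells (12.9% to 16.4%) and 5.78% of endothelial-like cells (5.38% to 6.20%). Without thinning the shares were 99.7%, 92.2%, 80.9%, 29.8% and 30.5%, at median depths of 16131, 8253.5, 8924, 2372 and 8800.5 UMI. T or NK-like and endothelial-like cells are not known for this gene, and whether their UMI came from RNA of broken cells was not tested.

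GSTA1-1, the other listed alpha-class transferase, gave few UMI but had its highest level in the same type. It reached 0.903 ± 0.568 UMI per 10000 in theca-like cells (n = 6) and 0.267 ± 0.257 in PTCH1 stroma (n = 6), and the difference of 2.05 ± 0.26 on the log2 scale passed the test (adjusted p = 9.08e-10). In granulosa-like cells it stood at 0.0651 ± 0.0139 (n = 6), 3.85 ± 0.30 below theca-like cells (adjusted p = 3.65e-19), where GSTA1 was 2.59 ± 0.32 below (adjusted p = 7.64e-11). Granulosa-like cells also held less GSTA1-1 than PTCH1 stroma (-1.80 ± 0.30, adjusted p = 6.79e-07), although GSTA1 did not separate these types. Most of the 818 UMI of GSTA1-1 in PTCH1 stroma came from HLS3 (353) and LLS3 (309). HLS1, HLS2, LLS1 and LLS2 gave 73, 36, 5 and 42. Across 15 types the 2 genes' mean log2 levels had a Pearson r of 0.871, which is a description over types from the same libraries.

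The 2 transferases are similar in name and lie close together in the RefSeq annotation, with 1 locus between them. Whether reads were shared between them, or lost, could not be checked, and each value is uncertain to that extent. The share of GSTA1-1 among the UMI of both genes differed between ewes. In theca-like cells it was 0.328%, 0.522% and 1.39% in HLS1, HLS2 and HLS3 and 0.299%, 0.534% and 0.882% in LLS1, LLS2 and LLS3. HLS3 and LLS3 had the highest share of their group. In PTCH1 stroma the shares were 0.414%, 0.281% and 2.75% in HLS animals and 0.348%, 0.470% and 2.43% in LLS animals, with HLS3 and LLS3 again the highest. In granulosa-like cells they were 0.168% to 0.413%, and LLS2 was the highest. The share did not differ between HLS and LLS in theca-like cells (0.748% ± 0.567 against 0.572% ± 0.293, n = 3 each, two-sided exact permutation p = 0.7), where 3 against 3 ewes cannot give a p under 0.1.

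GPX1, the cytosolic glutathione peroxidase, was highest in macrophage-like cells. Their levels were 16.1, 16.1 and 15.2 UMI per 10000 in HLS animals and 18.3, 15.4 and 16.6 in LLS animals, a mean of 16.3 ± 1.09 (n = 6), and the 6 ewes lay close together. This was 1.75 ± 0.18 above B-like cells on the log2 scale, the next type tested (5.05 ± 2.39, n = 6; adjusted p = 6.77e-13). Neutrophil-like cells held 13.3 ± 2.44 in the 3 ewes with enough cells and T or NK-like cells held 4.22 ± 0.676 (n = 6), so the immune types were the 4 highest. Theca-like cells stood near the lower end with 1.52 ± 0.16 (n = 6), and their difference of -0.47 ± 0.13 from the mean of the other types passed the test (adjusted p = 0.00147).

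GPX2, known as the peroxidase of epithelia, was found almost only in 2 types. Epithelial-like cells held 0.609 ± 0.166 UMI per 10000 (158 UMI, n = 4 ewes) and granulosa-like cells 0.069 ± 0.0488 (153 UMI, n = 6), with a difference of 2.91 ± 0.46 (adjusted p = 4.05e-07). Every other type had at most 9 UMI in all ewes together, and 6 of the named types had none. No fold change against the mean of all other types is given for GPX2 or GPX3, since types without a UMI of the gene enter that mean.

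GPX3, the secreted peroxidase of plasma, was highest in DPT stroma. Its levels there were 1.54, 5.47 and 3.68 UMI per 10000 in HLS animals and 6.02, 2.11 and 5.73 in LLS animals, a mean of 4.09 ± 1.95 (n = 6), and the groups overlapped. Lymphatic endothelial-like cells came next with 1.57 ± 1.19 (n = 6), 1.71 ± 0.35 lower (adjusted p = 2.7e-05), followed by granulosa-like cells with 0.872 ± 0.481 (n = 6), which they did not exceed at the threshold (0.71 ± 0.34, adjusted p = 0.0754). The stromal-like clusters differed for this gene in another way than for GSTA1. PTCH1 stroma held 0.0505 ± 0.0133 (n = 6) and CDR1 stroma 0.45 ± 0.243 (n = 6), a difference of -2.99 ± 0.41 (adjusted p = 1.98e-08).

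GPX4, which reduces lipid peroxides within membranes, was highest, among the types with replicates, in theca-like cells. Theca-like cells held 6.38, 4.39 and 4.46 UMI per 10000 in HLS animals and 4.28, 3.89 and 5.31 in LLS animals, a mean of 4.79 ± 0.909 (n = 6). Granulosa-like cells held 3.78 ± 1.07 (n = 6), and theca-like cells stood above them by 0.58 ± 0.17 (adjusted p = 0.00382). Macrophage-like cells came next with 3.16 ± 1.29 (n = 6) and could not be ordered against granulosa-like cells (0.06 ± 0.17, adjusted p = 0.8), and they too were above the mean of the other types (1.05 ± 0.12, adjusted p = 2.74e-12). The luteal-like cells of LLS3 held 16.9, more than any type in any ewe, without a replicate. T or NK-like cells were lowest with 0.582 ± 0.0281 (n = 6).

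SOD1, the copper and zinc superoxide dismutase of the cytosol, was highest in theca-like cells as well. The levels were 8.72, 4.16 and 4.72 UMI per 10000 in HLS animals and 6.95, 5.14 and 5.55 in LLS animals, a mean of 5.87 ± 1.68 (n = 6). HLS1 was the highest and HLS2 the lowest, so the spread lay within a group. Theca-like cells stood 0.45 ± 0.16 above epithelial-like cells (5.22 ± 1.36, n = 4; adjusted p = 0.0184) and 1.04 ± 0.14 above granulosa-like cells (3.23 ± 0.401, n = 6; adjusted p = 1.23e-09). Macrophage-like cells (1.78 ± 0.368, n = 6) and B-like cells (1.58 ± 0.758, n = 6) were lowest among the types tested and did not differ from each other (0.04 ± 0.17, adjusted p = 0.931).

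SOD2, the manganese superoxide dismutase of mitochondria and a gene known to respond to inflammatory signals, was highest, among the types with replicates, in phagocytes. Neutrophil-like cells held 15.1, 4.25 and 15.5 UMI per 10000 in the 3 ewes with enough cells, and these ewes differed widely. Macrophage-like cells held 2.90 ± 0.707 (n = 6) and stood 1.68 ± 0.19 above smooth muscle-like cells, the next type tested (1.08 ± 0.267, n = 6; adjusted p = 9.24e-13). With cells thinned to 1000 UMI, SOD2 was found in 22.7% of luteal-like cells (15.3% to 31.7%), which have no replicate. In macrophage-like cells this share was 24.7% (22.1% to 27.5%). Theca-like cells held 0.601 ± 0.103 (n = 6), and their difference of 0.30 ± 0.13 from the mean of the other types did not pass the test (adjusted p = 0.0557).

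CAT, the peroxisomal catalase, differed from the mean of the other types in 8 of 15. The highest mean, 0.662 ± 0.197 UMI per 10000 in smooth muscle-like cells (n = 6), and the lowest among the types with replicates, 0.211 ± 0.27 in B-like cells (n = 6), were linked by a chain of neighbours of which no pair differed at an adjusted p of 0.05. Against the mean of the other types it was higher in smooth muscle-like cells by 0.78 ± 0.16 (adjusted p = 4.5e-05) and in macrophage-like cells by 0.78 ± 0.14 (adjusted p = 1.64e-06), and also in DPT stroma (0.48 ± 0.14) and lymphatic endothelial-like cells (0.44 ± 0.15). It was lower in B-like cells (-1.0 ± 0.35, adjusted p = 0.0298), T or NK-like cells (-0.61 ± 0.19, adjusted p = 0.0056), endothelial-like cells led by APLN and ADAMTS5 (-0.43 ± 0.15) and perivascular-like cells (-0.43 ± 0.16). Theca-like cells did not differ from that mean (-0.10 ± 0.14, adjusted p = 0.628).

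TXN, the small protein that reduces disulfides and peroxiredoxins, was highest in granulosa-like cells. Their levels were 22.3, 9.63 and 9.58 UMI per 10000 in HLS animals and 13.4, 18.5 and 14.5 in LLS animals, a mean of 14.6 ± 5.01 (n = 6). HLS1 was the highest and the other 2 HLS ewes the lowest. Granulosa-like cells stood 0.53 ± 0.17 above macrophage-like cells (8.64 ± 2.44, n = 6; adjusted p = 0.00522), which stood 0.65 ± 0.20 above epithelial-like cells (7.13 ± 1.33, n = 4; adjusted p = 0.00477). Theca-like cells held 5.75 ± 0.88 (n = 6) and differed from granulosa-like cells by -1.11 ± 0.17 (adjusted p = 9.65e-08).

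**Figure D3:**
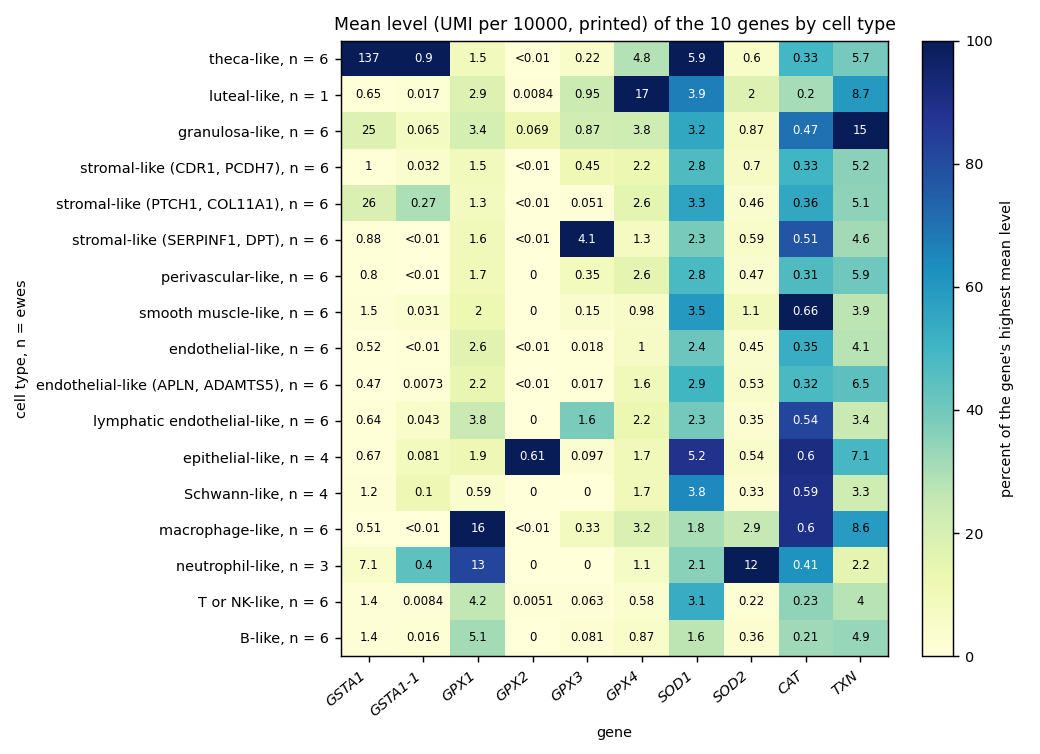
Mean level of the 10 genes by cell type. Rows are cell types with the number of ewes and columns are genes, the printed values are means over ewes in UMI per 10000, and the colour gives the percent of the gene's highest mean; GSTA1 and GSTA1-1 peak in theca-like cells, GPX1 in macrophage-like cells, TXN in granulosa-like cells and GPX4 in the luteal-like cells of 1 ewe.

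Counted over the members, granulosa-like cells had the most called higher than the mean of the other types, 8 of 10, where 33.7% of all 14319 genes tested were called higher and 15.2% lower, and no member was called lower. All but SOD1 and CAT were among the 8, and the calls of GPX2 and GPX3 rest on a mean that holds types without a UMI of the gene. Macrophage-like cells had 6 members higher (background 30%), GPX3 among them with the same limit, and 3 lower (24.1%). Theca-like cells had 5 higher (34.7%), namely GSTA1, GSTA1-1, GPX4, SOD1 and TXN, and 1 lower (17.4%), which was GPX1. PTCH1 stroma had 3 higher (32.5%) and 1 lower (13.0%), and endothelial-like cells had none higher (33.5%) and 4 lower (13.6%). The median log2 difference of the members was 1.30 in granulosa-like cells, against 0.13 over all genes, 0.85 in macrophage-like cells (-0.05) and 0.54 in theca-like cells (0.11). The counts and medians include GPX2 and GPX3 in every type. Where their fit gave no usable SE, as for GPX3 in endothelial-like cells, the gene counted as not called.

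Granulosa-like cells were clustered again, without the members and the further list, into states. Of these, 8 had at least 10 cells in at least 4 ewes and were tested, on the members except GSTA1-1, which did not pass the filter on low counts. GSTA1 was highest in the CYP19-high state, CYP19 being the aromatase gene in these tables, with 197 UMI per 10000 in HLS2 and 89.0 in LLS1, the only 2 ewes with enough of these cells; the first lay above the range of theca-like cells and the second just below it. Among the tested states the state led by C14H19orf33 and PPP1R1A (39.3 ± 19.9, n = 6), the cycling state (39.2 ± 9.79, n = 5) and the state with high INHA and AMH (36.0 ± 8.46, n = 6) were highest and did not differ as neighbours in this order (adjusted p = 0.843 and 0.815). The state led by C14H19orf33 and PPP1R1A was not named by any granulosa state markers. Its closest marker set was that of macrophages, without any of them among its 10 leading genes. Its median of 2601.5 UMI was the lowest of the tested states. The mural-like state led by MMP9 and FN1 was lowest with 3.36 ± 1.34 (n = 4), with a difference of -3.01 ± 0.24 from the mean of the other states (adjusted p = 1.89e-15).

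TXN had another order. The mural-like states, cells named from markers of the follicle wall side, held the most: 24.8 ± 4.81 UMI per 10000 in the state led by GCG and MMP1 (n = 6) and 22.9 ± 6.02 in that led by MMP9 and FN1 (n = 4), which did not differ from each other (0.17 ± 0.16, adjusted p = 0.561). They exceeded the mean of the other states by 1.39 ± 0.10 (adjusted p = 4.97e-17) and 1.19 ± 0.12 (adjusted p = 9.42e-12). The state led by CCN3 and ANGPT2 had the lowest TXN of the tested states with 4.51 ± 1.08 (n = 5; -1.29 ± 0.14, adjusted p = 2.19e-10). HLS1, the ewe with the highest TXN in granulosa-like cells as a whole, gave 174 of the 400 cells of the state led by GCG and MMP1. The ewe with the next highest level, LLS2, gave 26 of them, and the ewe with the lowest, HLS3, gave 61. Of the 206 cells of a further mural-like state, led by MX1 and SERPINA14 and not tested, LLS2 gave 201. The state led by MMP9 and FN1 had 20 cells from HLS1, 43 from LLS2 and 76 from HLS3. In all, these ewes had 277 (HLS1), 583 (LLS2) and 870 (HLS3) granulosa-like cells. The part of the composition of the granulosa-like cells in these levels was not tested.

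SOD1 was highest in the cycling state (5.54 ± 0.731, n = 5; 0.85 ± 0.11 above the mean of the other states, adjusted p = 2.64e-09) and lowest, among the tested states, in the mural-like state led by GCG and MMP1 (2.04 ± 0.282, n = 6; -0.95 ± 0.11, adjusted p = 6.37e-10). GPX4 spanned 4.86 ± 2.11 in the mural-like state led by MMP9 and FN1 (n = 4), which could not be ordered against the cycling state (-0.17 ± 0.17, adjusted p = 0.412), to 1.61 ± 0.531 in the state led by CCN3 and ANGPT2 (n = 5; -1.08 ± 0.14, adjusted p = 4.42e-08). GPX3 was highest in the state with high INHA and AMH among the tested states (1.30 ± 0.572, n = 6; 1.65 ± 0.24, adjusted p = 2.07e-07) and lowest in the early-like state (0.0989 ± 0.0761, n = 6; -3.26 ± 0.51, adjusted p = 1.09e-06). CAT was highest in the mural-like state led by MMP9 and FN1 (1.08 ± 0.638, n = 4; 1.24 ± 0.17, adjusted p = 2.87e-08), in which HLS1 held 0.23 and the other 3 ewes 0.949 to 1.66.

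GPX1 was highest in the state with high INHA and AMH (5.36 ± 0.947, n = 6; 0.69 ± 0.11, adjusted p = 1.54e-06). GPX2 was found in the CYP19-high state (0.833 in HLS2 and 0.461 in LLS1), the state with high INHA and AMH (0.21 ± 0.186, n = 6), the cycling state (0.179 ± 0.0597, n = 5) and that led by C14H19orf33 and PPP1R1A (0.11 ± 0.171, n = 6), and the early-like, PTX3-led and both tested mural-like states gave no UMI of it. SOD2 was higher in the mural-like state led by GCG and MMP1 by 0.78 ± 0.14 (adjusted p = 1.19e-05) and in the state led by PTX3 and SGMS2 by 1.02 ± 0.18 (adjusted p = 1.99e-05). The latter did not pass without HLS3, which gave 182 of its 277 cells (0.53, adjusted p = 0.175).

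Of the 9 members tested, 7 were higher in the cycling state (background 22.6%) and 1 lower (17.4%). The state with high INHA and AMH had 6 higher (17.1%) and 1 lower (12.1%), and the early-like state had none higher (20.4%) and 4 lower (18.4%). GPX2 is among those higher in the cycling state and in that with high INHA and AMH. Its calls rest on a mean that holds states without a UMI of the gene. The mural-like state led by GCG and MMP1 had 3 higher (20.7%) and 3 lower (14.3%), and that led by MMP9 and FN1 had 4 higher (24.7%) and 3 lower (18.8%).

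**Figure D4:**
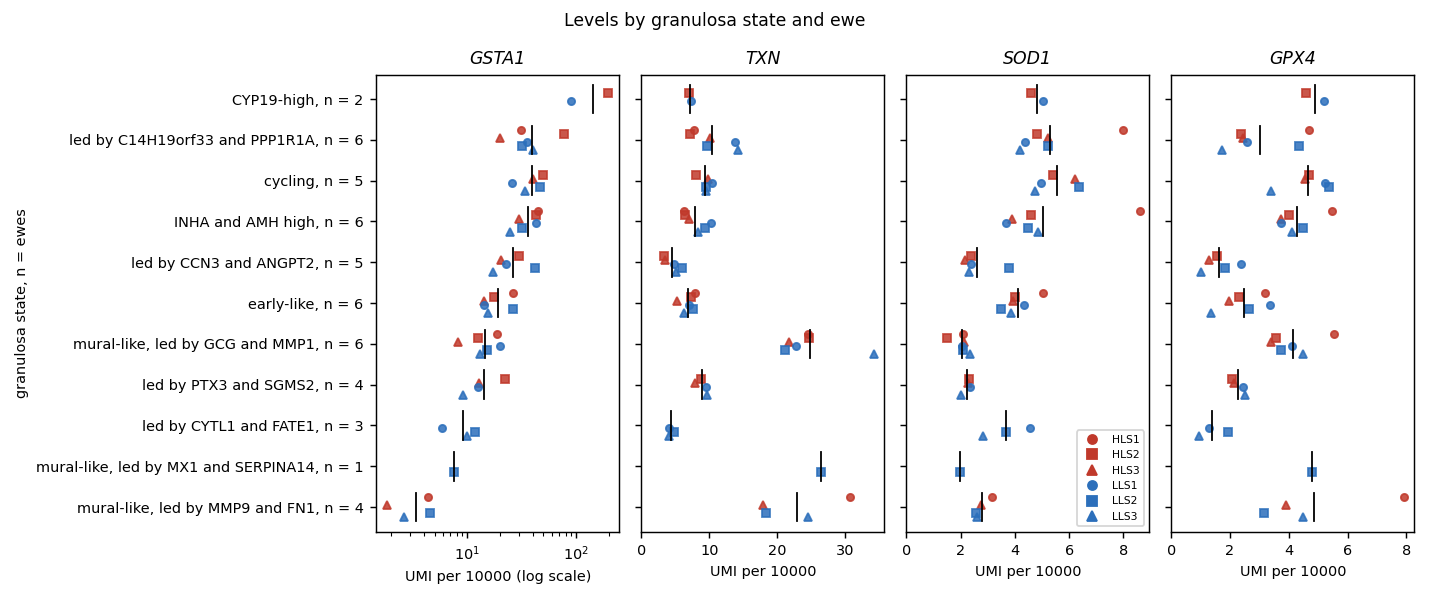
GSTA1, TXN, SOD1 and GPX4 by granulosa state. Horizontal axes give UMI per 10000, on a log scale for GSTA1, points are ewes with at least 10 cells of the state, black bars are means and n is the number of ewes; GSTA1 is lowest and TXN high in the mural-like state led by MMP9 and FN1, and the CYP19-high state has GSTA1 values of 197 and 89.0.

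Of the further list, 58 genes were tested between cell types. Theca-like cells had 36 of them higher (62.1%) and 9 lower (15.5%), against backgrounds of 34.7% and 17.4%, with a median log2 difference of 0.49 where all genes had 0.11. By role, 9 of 10 other peroxidases were higher and none lower, both superoxide genes were higher, and 8 of 14 genes of glutathione synthesis and recycling were higher and 2 lower. Of the genes tied to thioredoxin and glutaredoxin 10 of 15 were higher and 1 lower, of those around NRF2, the main activator of antioxidant genes, 4 of 9 were higher and 2 lower, and of other transferases 3 of 8 were higher and 4 lower. SLC7A11, the cystine importer that feeds glutathione synthesis, was 4.39 ± 0.22 higher (adjusted p = 4.92e-30), SOD3, the extracellular superoxide dismutase, 2.94 ± 0.17 higher (adjusted p = 3.9e-26) and PXDN, peroxidasin, 2.59 ± 0.18 higher (adjusted p = 1.88e-21). GGT5, a gamma-glutamyltransferase, differed by -4.51 ± 0.78 (adjusted p = 6.6e-07).

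Granulosa-like cells had 24 of the 58 genes higher (41.4%, background 33.7%) and 10 lower (17.2%, background 15.2%), shares near those of all genes. GCLC, the catalytic subunit of the first enzyme of glutathione synthesis, was 3.56 ± 0.11 higher (adjusted p = 1.07e-42) and QSOX1, a sulfhydryl oxidase, 2.49 ± 0.16 higher (adjusted p = 6.12e-24), while GSTP1, the pi-class transferase, differed by -1.95 ± 0.29 (adjusted p = 1.93e-08) and MGST2, a membrane-bound transferase, by -1.73 ± 0.32 (adjusted p = 3.98e-06). Other peroxidases had 7 of 10 higher and none lower, glutathione synthesis and recycling 7 of 14 and 2 lower, thioredoxin and glutaredoxin 7 of 15 and 2 lower, and other transferases 1 of 8 and 3 lower, where the same 33.7% and 15.2% apply. PTCH1 stroma had 22 higher (37.9%, background 32.5%) and 5 lower (8.6%, background 13.0%). SLC7A11 was 3.37 ± 0.25 higher there (adjusted p = 2.49e-20), and in CDR1 stroma 3.30 ± 0.25 (adjusted p = 6.79e-20), so the cystine importer was high in both clusters although GSTA1 was high in only 1 of them. GSTM3, a mu-class transferase, was 2.71 ± 0.14 higher in PTCH1 stroma (adjusted p = 5.99e-29), 3.66 ± 0.13 in CDR1 stroma (adjusted p = 1.56e-39) and 3.5 ± 0.14 in DPT stroma (adjusted p = 1.42e-37).

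Macrophage-like cells had 26 of the 58 genes higher (44.8%, background 30%) and 15 lower (25.9%, background 24.1%). HMOX1, which breaks down haem, was 4.49 ± 0.13 higher (adjusted p = 8.86e-47) and GLRX, glutaredoxin, 3.41 ± 0.10 higher (adjusted p = 1.25e-47), while SOD3 differed by -3.87 ± 0.43 (adjusted p = 9.44e-13) and GPX8, a peroxidase of the endoplasmic reticulum, by -4.33 ± 0.51 (adjusted p = 6.32e-12). MGST2 was the leading gene of the list in endothelial-like cells (3.11 ± 0.12, adjusted p = 3.81e-38) and in lymphatic endothelial-like cells (3.71 ± 0.13, adjusted p = 1.54e-39). GSTP1 was higher in T or NK-like cells by 2.82 ± 0.19 (adjusted p = 5.61e-23), in perivascular-like cells by 2.81 ± 0.16 (adjusted p = 2.9e-26) and in smooth muscle-like cells by 2.53 ± 0.21 (adjusted p = 3.44e-18). In epithelial-like cells PRDX5, a peroxiredoxin, was 2.57 ± 0.11 higher (adjusted p = 4.14e-34) and SLC7A11 3.08 ± 0.39 higher (adjusted p = 3.96e-10).

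Within the granulosa-like cells, 42 genes of the list were tested. SELENOP, which carries selenium for glutathione peroxidases, was 2.95 ± 0.12 higher in the mural-like state led by GCG and MMP1 (adjusted p = 1.11e-26) and 2.70 ± 0.14 higher in that led by MMP9 and FN1 (adjusted p = 1.51e-22). It differed by -2.51 ± 0.20 in the state with high INHA and AMH (adjusted p = 3.44e-15) and by -2.73 ± 0.22 in the cycling state (adjusted p = 1.07e-15). QSOX1 was 2.39 ± 0.15 and 3.66 ± 0.16 higher in the same mural-like states (adjusted p = 2.07e-19 and 4.92e-26). GCLC was 2.35 ± 0.12 higher in the state with high INHA and AMH (adjusted p = 8.19e-23) and differed by -1.55 ± 0.16 in the mural-like state led by GCG and MMP1 (adjusted p = 1.09e-11). SLC7A11 was 3.38 ± 0.28 higher in the early-like state (adjusted p = 1.94e-14). The state led by C14H19orf33 and PPP1R1A had the most genes of the list called, 16 higher (background 21.0%) and 2 lower (20.7%), led by GSTM3 (1.69 ± 0.19, adjusted p = 1.48e-10).

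The genes whose mean log2 levels over 15 cell types were most like those of a member were, for GSTA1, LOC114108595 (Pearson r = 0.979), KLK1 (0.964) and CCL25 (0.955), and for GSTA1-1, KCNIP4 (0.912). The closest to GPX1 was TRAPPC2L (0.932), to GPX2 KLC3 (0.993), to GPX3 C1D (0.83) and to GPX4 PDIA4 (0.903). For SOD1 it was RABL2B (0.868), for SOD2 TMEM170B (0.911), for CAT CPEB2 (0.924) and for TXN AMH (0.867). These are descriptions over 15 types taken from the same 6 libraries, and the profile of a gene measured in few types rests on those types.

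Between HLS and LLS ewes no member passed an adjusted p of 0.05 in any of 15 cell types (14 named types and the cycling cells) with edgeR, and none with DESeq2. Of 113 combinations of a member and a type that passed the filter on low counts, 8 had an unadjusted p under 0.05, which is 7.08%, where over all genes and types it was 3.7%. Of these 8, 6 were GSTA1. Over all genes the test called 2 in macrophage-like cells (0.0230% of those tested) and 2 in Schwann-like cells (0.295%), and none in the other types.

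In theca-like cells GSTA1 was 0.53 ± 0.32 higher in HLS on the log2 scale (adjusted p = 0.962), and the ewes' levels overlapped. GPX4 (0.40 ± 0.29), SOD2 (0.36 ± 0.27), SOD1 (0.24 ± 0.37), GPX1 (0.14 ± 0.24), TXN (0.11 ± 0.24) and CAT (-0.12 ± 0.23) lay within 2 SE of 0 in these cells. In granulosa-like cells GSTA1 was 0.26 ± 0.38 higher in HLS (adjusted p = 0.956), TXN 0.07 ± 0.39 and GPX4 0.34 ± 0.34, while GPX3 differed by -0.56 ± 0.45, and all 10 members overlapped between the groups, where 11% of all genes did not overlap in granulosa-like cells and 9.55% in theca-like cells. Over all kept cells of an ewe, the difference of GSTA1 was 0.94 ± 0.61 (adjusted p = 0.997).

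The combinations of GSTA1 with an unadjusted p under 0.05 were in types with little of the gene: T or NK-like, B-like, macrophage-like, endothelial-like cells led by APLN and ADAMTS5, CDR1 stroma and DPT stroma. The shares of all genes at that threshold in these types were, in the same order, 2.71%, 3.73%, 5.84%, 6.17%, 5.26% and 2.97%. In T or NK-like cells the levels were 1.51, 1.52 and 2.62 UMI per 10000 in HLS1, HLS2 and HLS3 and 0.31, 0.727 and 1.43 in LLS1, LLS2 and LLS3, without overlap, a difference of 1.36 ± 0.41 (unadjusted p = 0.00579, adjusted p = 1.0 from edgeR). There 8.08% of all genes did not overlap. GSTA1 also did not overlap in B-like cells (1.75 ± 0.65), in the endothelial-like cells led by APLN and ADAMTS5 (1.42 ± 0.45) and in CDR1 stroma (1.03 ± 0.39), where 10.2%, 11.5% and 10.6% of all genes did not. In macrophage-like cells the difference of 1.0 ± 0.37 turned to -0.25 when called doublets were kept.

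GSTA1 was higher in HLS in all 14 types in which it was tested, as were 13.8% of the 1082 genes tested in each of them, and the types of a ewe come from 1 library. The share of theca-like cells and the GSTA1 level of barcodes outside the filters were set beside the GSTA1 level of T or NK-like cells. LLS1, the lowest in T or NK-like cells, had 0.974% theca-like cells and 4.34 UMI of GSTA1 per 10000 outside the filters. HLS3, the highest, had 6.80% and 28.6. LLS2 had 1.81% and 3.61, HLS1 3.30% and 6.31, HLS2 4.96% and 11.6, and LLS3 6.02% and 12.6. LLS3, below only HLS3 in both measures, was below HLS1 and HLS2 in T or NK-like cells (1.43 against 1.51 and 1.52). These 3 levels rest on 74, 80 and 85 UMI, so they lie close together. LLS2 was below LLS1 outside the filters but above it in T or NK-like cells (0.727 against 0.31). Over all barcodes of a library GSTA1 was at 3.38 UMI per 10000 in LLS1, 9.29 in LLS2, 17.4 in HLS1, 22.0 in HLS2, 24.3 in LLS3 and 27.1 in HLS3. The part of these measures in the differences between HLS and LLS was not tested.

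**Figure D5:**
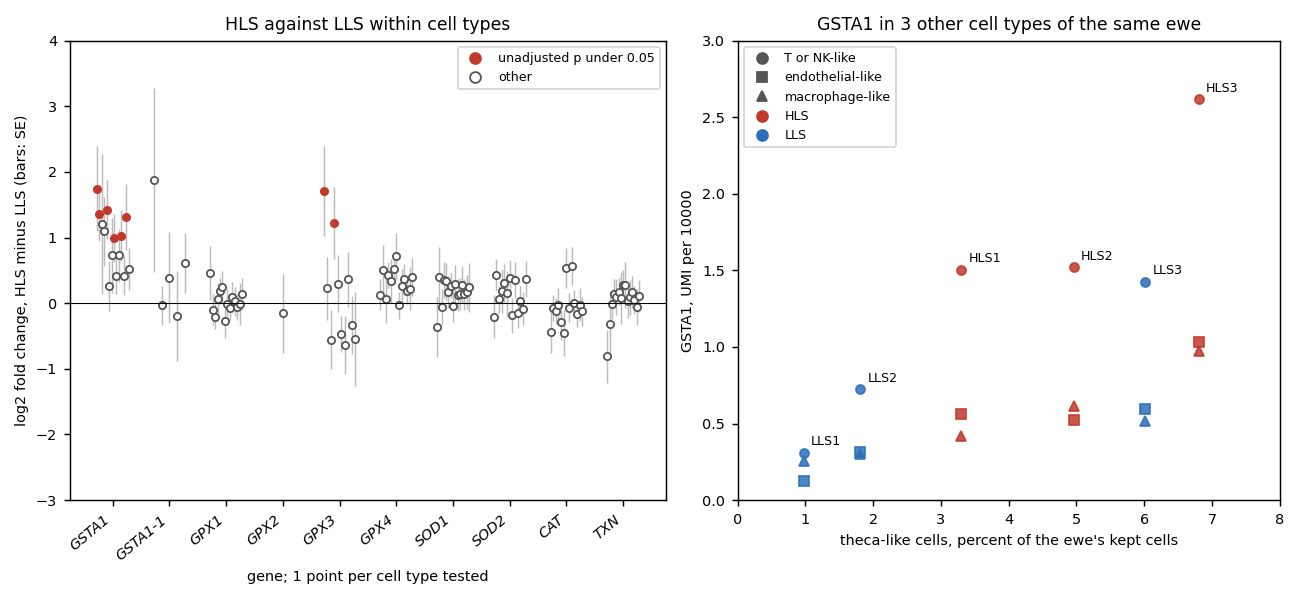
HLS against LLS. Left, log2 fold changes (HLS minus LLS) with SE bars, 1 point for each cell type in which a gene was tested, filled where the unadjusted p is under 0.05, which holds for 6 GSTA1 points and 2 GPX3 points. Right, the GSTA1 level of T or NK-like, endothelial-like and macrophage-like cells of each ewe against its percent of theca-like cells; LLS1 and LLS2 are lowest in both measures and HLS3 highest.

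The other 2 combinations with an unadjusted p under 0.05 were GPX3 in cycling cells (1.71 ± 0.68, adjusted p = 0.988) and in lymphatic endothelial-like cells (1.22 ± 0.55, adjusted p = 0.982), and both overlapped between the groups; 1.46% and 3.85% of all genes were under that p in these types. The value in cycling cells turned to -0.19 at a clustering resolution of 0.4. Cycling cells were made of 2 clusters that ewes filled unequally: the cluster of 980 cells had 20, 247 and 31 in HLS ewes and 495, 18 and 169 in LLS ewes, and that of 726 cells had 67, 149 and 181 and 19, 54 and 256. The part of this composition in the GPX3 difference was not tested. GPX4 in lymphatic endothelial-like cells (0.52 ± 0.24) and CAT in T or NK-like cells (-0.44 ± 0.32) did not overlap but had unadjusted p values of 0.0506 and 0.198, in types where 9.91% and 8.08% of all genes did not overlap. Without a filter on low counts GSTA1 passed in T or NK-like cells, in endothelial-like cells led by APLN and ADAMTS5 and in DPT stroma, and GPX3 passed in lymphatic endothelial-like cells, while 641 genes passed over all types in place of 4.

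Whether the effect of the group differed between cell types was tested directly. For GPX2, GPX3 and GSTA1-1 the F statistic was near 0 in nearly every type, so no usable SE could be derived. A difference of these 3 genes could therefore hardly be called, and their results in this test say little about one. Of the members in 15 types, none had an adjusted p under 0.05 in this test with edgeR, for which the share of all genes was 0.168% in B-like, 0.0279% in macrophage-like, 0.0140% in Schwann-like and 0.00698% in epithelial-like cells and 0 in the other types, and 5 had an unadjusted p under 0.05: SOD1 in epithelial-like cells (-1.0 ± 0.36, adjusted p = 0.565, with HLS3 as the only HLS ewe with enough of these cells), TXN in B-like cells (-0.73 ± 0.31, adjusted p = 0.588), CAT in macrophage-like cells (0.70 ± 0.29, adjusted p = 0.848) and in smooth muscle-like cells (0.72 ± 0.33, adjusted p = 1), and SOD2 in macrophage-like cells (0.55 ± 0.28, adjusted p = 1). The share of all genes with an unadjusted p under 0.05 was 5.71%, 6.47%, 4.72% and 3.04% in epithelial-like, B-like, macrophage-like and smooth muscle-like cells.

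None of the tested genes of the further list passed an adjusted p of 0.05 between HLS and LLS in any type. Those with the smallest unadjusted p in theca-like cells were SLC7A11 (-0.66 ± 0.22) and GSTP1 (1.03 ± 0.45), both with an adjusted p of 0.962, and in granulosa-like cells SOD3 (-1.18 ± 0.40) and CCS, the copper chaperone of SOD1 (0.49 ± 0.17), both with an adjusted p of 0.941. SOD3 was also among them in CDR1 stroma (-1.30 ± 0.33, adjusted p = 0.903), smooth muscle-like cells (-1.06 ± 0.30, adjusted p = 0.994) and perivascular-like cells (-0.82 ± 0.38, adjusted p = 0.998). The same held in endothelial-like cells led by APLN and ADAMTS5 (-0.98 ± 0.30, adjusted p = 0.780) and in Schwann-like cells (-0.63 ± 0.49, adjusted p = 0.622).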

How the data were processed

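Raw UMI counts per gene and barcode of 6 ewes (3 HLS, 3 LLS, as labelled) were deposited by the authors, who used Cell Ranger with STAR on Chromium 3' v3 libraries. The genome build and annotation are not given in the sources used here, and no sequence is shown. The 10 members, the further list and the tests were chosen with earlier results of these data known.

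Kept barcodes had at least 200 genes, 1000 UMI and a complexity (log10 genes divided by log10 UMI) of 0.7, and at most 10% mitochondrial and 5% haemoglobin UMI. Removed next were 2007 barcodes resembling simulated doublets (2 simulated per cell; expected share 0.8% per 1000 cells). Counts were log-scaled, and 2000 variable genes, 30 principal components and 20 neighbours were clustered with leidenalg 0.10.2 at a resolution of 0.8. Clusters were named from fixed marker genes, by a scoring rule set after they were seen; 428 cells led by markers of other types were left out of the granulosa-like cells, and 963 stayed unnamed. UMI were summed per ewe and type (at least 10 cells), filtered with filterByExpr, scaled with TMM and tested in edgeR 4.0.16 (quasi-likelihood, R 4.3.3), with the scripts checked on simulated data. There the test of HLS against LLS called 14.1% of genes changed 2-fold in theca-like cells and 22.4% in granulosa-like cells. Of genes changed 4-fold it called 95.8% and 93.8%. The simulation changed 200 genes and gave every gene the same spread between ewes, so these shares do not carry over to single genes of the data. Even there most 2-fold changes were missed. DESeq2 1.42.0 was an alternative. A type needed 4 ewes to be compared with other types, 2 ewes of each group for HLS against LLS, or 1 of each for the difference of that effect between types. From the further list, up to 4 genes per type with the largest differences past an adjusted p of 0.05 are named, or, between HLS and LLS, 2 with the smallest p; a selection of these is printed. Levels are not compared between genes, apart from the share of GSTA1-1. Gene order came from RefSeq names (ARS-UI_Ramb_v3.0).

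Replicate numbers shared by the groups were not taken to mark related ewes, since the labels state no relation.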

Additional observations from a re-analysis of the deposited data

Results flagged for a closer look

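Each combination of a member and a cell type with enough UMI in a group of 4 to 6 ewes was examined for an ewe far from the others (Dixon's criterion), 113 combinations in all, and 6 stood out; chance gives about 1 in 20. HLS1 was involved in 4 of them. In macrophage-like cells GPX4 was 5.74 UMI per 10000 in HLS1 and at most 2.92 in the other 5 ewes, and SOD1 was 2.51 in HLS1 and at most 1.75 in the others; HLS1 had 41 of these cells, the fewest. In CDR1 stroma SOD1 was 3.73 in HLS1 and at most 2.82 in the others, and GPX4 was 3.15 in HLS3 and at most 2.11 in the others. In T or NK-like cells SOD2 was 0.113 in HLS1 and at least 0.215 in the others, and SOD1 was 2.26 in HLS2 and at least 3.10 in the others.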

How the results depend on the processing

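Limits: with 3 ewes a group the SE of a member between HLS and LLS was often above 0.3 on the log2 scale, and cell types were rebuilt from the counts. The part of RNA from broken cells in low levels of GSTA1 was not tested. The type (10 members) or granulosa state (9 members) with the largest log2 difference of each member from the others, which for GPX4 is the cycling state and for SOD2 the state led by PTX3 and SGMS2, was recomputed; each kept its direction and its side of the threshold under every alternative that gave a value, except SOD2 in the state led by PTX3 and SGMS2 without HLS replicate 3 (given above). For GSTA1 in theca-like cells the log2 difference from the other types ranged from 6.49 to 7.04 over 14 of the 15 alternatives, and the other gave no value for theca-like cells. Counts of combinations of a member with a type called ranged from 70 to 86, and with a state from 35 to 46. With the settings given above, 40 of 150 combinations with a type were higher and 41 lower. Of 72 combinations with a state, 27 were higher and 19 lower. Of all genes, 5.12% to 34.7% were higher in a type and 6.70% to 24.1% lower. In a state 12.8% to 24.7% were higher and 7.43% to 20.7% lower. The members were not tested against these shares. Between HLS and LLS 4 combinations of a member and a type passed without a filter on low counts, and none under the other alternatives. They were GSTA1 at 1.43, 1.30 and 1.35 in endothelial-like cells led by APLN and ADAMTS5, DPT stroma and T or NK-like cells, and GPX3 at 1.17 in lymphatic endothelial-like cells. The count of all genes past the threshold, 4 over all types, became 46 with DESeq2, 641 without the filter and 17 with a mitochondrial limit of 20%, and 3 (without LLS replicate 3) to 22 (without HLS replicate 2) with an ewe left out; the cause was not tested. GPX3 in cycling cells turned to -0.19 at a resolution of 0.4 and GSTA1 in macrophage-like cells to -0.25 with doublets kept. The HLS minus LLS difference in the share of GSTA1-1, 0.176 percentage points in theca-like cells, lay between -0.147 (without HLS replicate 3) and 0.386 when an ewe was left out. For granulosa-like cells these limits were -0.0892 and 0.0131, and for PTCH1 stroma -0.736 and 0.738 (-0.305 without LLS replicate 1, -0.244 without LLS replicate 2, 0.0098 in granulosa-like cells without HLS replicate 2).

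The labels number the ewes 1 to 3 in each group but state no pairing. Deviations of same-numbered ewes from their group means had correlations of -0.058, -0.334 and 0.026, so the numbers were not taken as pairs. With a replicate block no member and 2 genes passed between HLS and LLS. An alternative that also kept 4 unnamed transferase-like loci out of the clustering was added after seeing the data.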

Other observations

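A locus without a gene name beside GSTA1 in the RefSeq order, LOC101106720, was looked at after its values were seen. Its mean was highest in theca-like cells (7.72 ± 8.09 UMI per 10000, n = 6, lowest 0.377 and highest 18.7) and stood 1.80 ± 0.36 above granulosa-like cells on the log2 scale (1.88 ± 1.75, n = 6; adjusted p = 2.14e-05 from edgeR). Within ewes the order held in 5 of 6: in LLS2 theca-like cells held 0.377 and granulosa-like cells 1.16. Unlike GSTA1, it separated granulosa-like cells from PTCH1 stroma (0.093 ± 0.0541, n = 6) by 4.30 ± 0.43 (adjusted p = 3.98e-14). The luteal-like cells of LLS3 held 7.02 of it, above the 2.19 in theca-like cells of that ewe, and 0.649 of GSTA1, so that these cells, which have no replicate, were high in LOC101106720 and low in GSTA1. Among granulosa states it was highest in the CYP19-high state (10.8 and 16.9 in its 2 ewes) and low in the mural-like state led by MMP9 and FN1 (0.0753 ± 0.0322, n = 4).

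LOC101111664, a glutathione S-transferase of the theta class by its annotation and also chosen after its values were seen, was 4.42 ± 0.32 higher in granulosa-like than in theca-like cells (adjusted p = 1.71e-20) and did not differ between theca-like cells and PTCH1 stroma (-0.24 ± 0.34, adjusted p = 0.657). Between HLS and LLS granulosa-like cells it differed by 0.62 ± 0.21 without overlap (adjusted p = 0.941).

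The cells left out of the granulosa-like type, most of which were led by theca and stromal genes, held 82.8 ± 25.5 UMI of GSTA1 per 10000 (n = 6), and the cycling cells of all types held 29.9 ± 19.3 (n = 6), from 0.728 in LLS1 to 54.2 in HLS1.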
